A study of Mus musculus with 5 samples.

Results

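The genes described here are 10 enzymes by which the secretory club cells of the mouse bronchiole handle foreign chemicals: the cytochrome P450s Cyp2f2, Cyp2a5, Cyp4b1, Cyp2s1, Cyp1a1 and Cyp1b1, the aldehyde dehydrogenase Aldh1a1, the glutathione S-transferase Gsta3, the flavin-containing monooxygenase Fmo2 and the carboxylesterase Ces1d. They were taken by symbol from the comparison tables of the series, and all 10 were among the 21590 genes listed in each table. Total RNA was sequenced from whole lungs of mice on a mixed 129S6, C57BL/6 and BALB/c background that were wild type (WT) or lacked Cldn4 (KO), the gene of the epithelial tight junction protein claudin-4. The mice were either not ventilated or ventilated for 2 h at an injurious pressure of 40 cmH2O, a model known as ventilator-induced lung injury (VILI). There were 5 groups: KO VILIhigh (ventilated KO mice with more injury than WT), KO VILIlow (ventilated KO mice with injury similar to WT), WT VILI, KO noVILI and WT noVILI. The 2 ventilated KO groups were thus formed by how badly the lungs were injured, and genotype and injury grade cannot be told apart in KO VILIhigh against WT VILI.

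The design text gives 2 libraries per group, whereas the deposited tables hold 1 fold change, 1 p-value and 1 mean abundance per gene and comparison and no values per library. The spread between libraries and their sequencing depth are therefore unknown, and no value below carries an SD. Whether the 2 libraries of a group came from separate animals is not given in the sources used here, so the p-values measure only the spread between those libraries. In place of an SD, an approximate standard error (SE) was worked back from each deposited fold change and its p-value, and the level of each group in CPM (read counts scaled to a common library size) was rebuilt from the fold change and the mean abundance. CPM values are not divided by transcript length, so a gene is compared between groups and never with another gene. A gene is called changed where the authors' adjusted p, a false discovery rate from edgeR over the whole table, is under 0.05.

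Club cells are the main site of P450 activity in the mouse airway, and they are known for the injury that follows when their own P450s turn an inhaled chemical such as naphthalene into a reactive product. Oxidation by a P450 or a flavin-containing monooxygenase, or cleavage by an esterase, is the first step of such metabolism. Aldehyde dehydrogenases and glutathione transferases then act on the products. Cyp1a1 and Cyp1b1 are the classic targets of the aryl hydrocarbon receptor (AhR), a receptor for planar aromatic compounds. In a whole lung, fewer cells of a type and less RNA per cell cannot be told apart. Several of the enzymes, among them Aldh1a1, Cyp1b1, Cyp4b1, Fmo2 and Ces1d, are also made by other lung cells. No enzyme value here is therefore read as that of club cells alone.

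The targeted gene followed the labels: Cldn4 stood at 0.122 CPM in KO VILIhigh, 0.0212 in KO VILIlow, 139 to 140.4 in WT VILI, 0.140 in KO noVILI and 8.98 to 9.38 in WT noVILI lungs. Sex-linked genes separated the ventilated from the unventilated groups. The Y-linked gene Ddx3y stood at 90.7 CPM in KO VILIhigh, 107 in KO VILIlow and 114 to 115 in WT VILI lungs, and at 0.421 in KO noVILI and at most 0.234 in WT noVILI lungs. The X-inactivation transcript Xist stood at 2.56, 4.08 and 5.71 to 6.13 CPM in the same ventilated groups, and at 505 CPM in KO noVILI and 890 CPM in WT noVILI lungs. Xist was also called lower in KO noVILI than in WT noVILI lungs, with a log2 fold change of -0.82 (approximate SE 0.20, adjusted p = 0.00339, edgeR). The unventilated comparison of genotypes is therefore not free of a sex-linked difference, and its part in the enzyme values was not tested. The labels do not give the sex, and sex and ventilation cannot be told apart in any comparison of ventilated with unventilated lungs. The best known club cell product, the secretoglobin Scgb1a1, is listed with a fold change of exactly 0 in all 4 tables at a high abundance, and no statement on it is made here.

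Without ventilation, KO lungs held less of 2 of the 10 enzymes than WT lungs, and none was called higher. Cyp2a5, which oxidises nicotine, coumarin and several nasal and lung toxicants, fell to 72.4 CPM, against 229 CPM in WT, and Cyp1a1, the AhR-induced P450 that oxidises polycyclic aromatic hydrocarbons, fell to 13.9 CPM, against 29.8 CPM in WT. The table called 3.36% of all genes (1.45% higher and 1.92% lower in KO lungs), and 4.96% of those with a mean abundance of at least 3 on the log2 CPM scale, the range in which all 10 enzymes lie. The median log2 fold change of the 10 was -0.14 in the authors' deposited table, against 0.01 over all its genes above the abundance minimum used here.

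For Cyp2a5 this was a log2 fold change of -1.66 with an approximate SE of 0.18 (adjusted p = 9.77e-18, edgeR) in the authors' deposited table. For Cyp1a1 the log2 fold change was -1.10 with an approximate SE of 0.32 (adjusted p = 0.025) in the authors' deposited table.

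The other 8 enzymes did not pass the threshold. Cyp2f2, the P450 that activates naphthalene in mouse club cells, stood at 2258 CPM in KO noVILI and 2751 CPM in WT noVILI lungs. Cyp2s1, a P450 of epithelial surfaces, stood at 193 CPM in KO noVILI and 249.8 CPM in WT noVILI lungs. Their log2 fold changes were -0.28 and -0.37 (adjusted p = 0.387 and 0.163) in the authors' deposited table, and both had an unadjusted p under 0.05. Cyp1b1, which oxidises polycyclic hydrocarbons and steroids, stood at 10.5 CPM in KO noVILI against 14.9 CPM in WT noVILI lungs (log2 fold change -0.51, adjusted p = 0.503, authors' deposited table). Cyp4b1, Aldh1a1, Gsta3, Fmo2 and Ces1d had log2 fold changes between 0.00 and 0.19 in the authors' deposited table. The 5 values sit on 0 or just above it, within 2 approximate SEs, while all 5 other enzymes have negative ones.

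**Figure D1:**
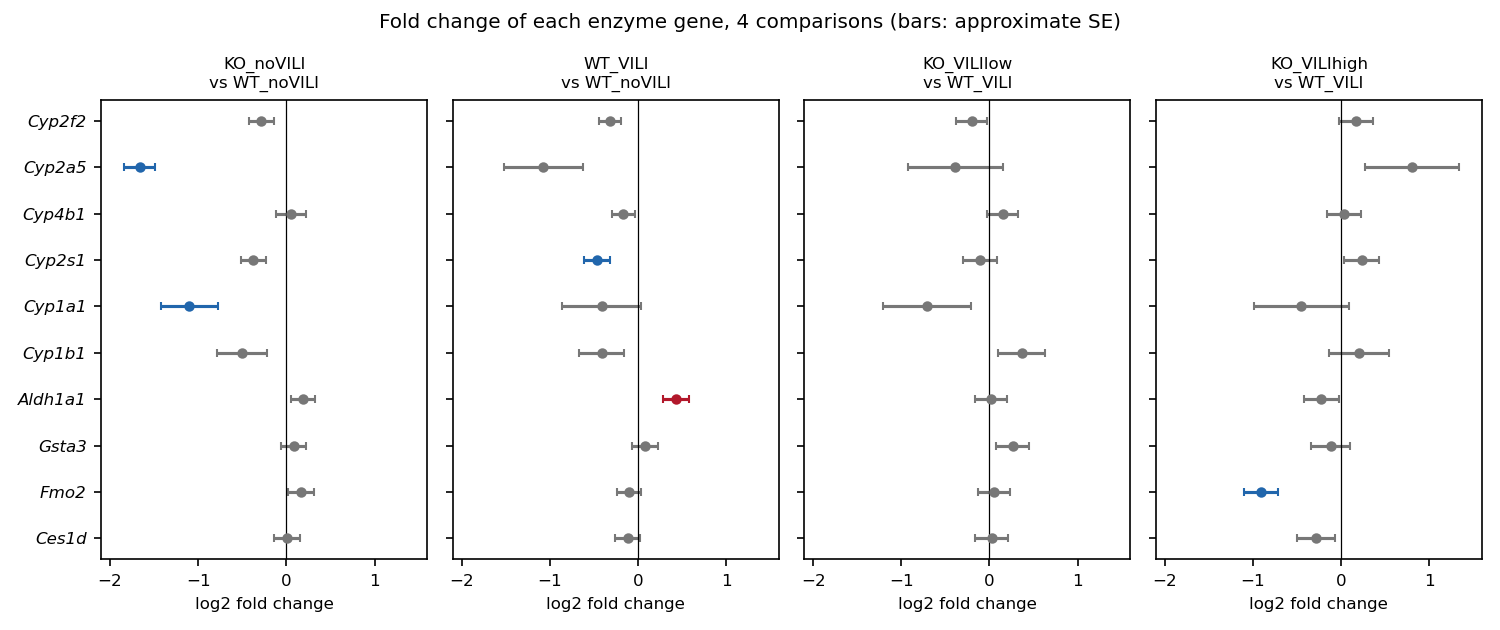
Log2 fold change of the 10 enzyme genes (points) with the approximate SE (bars) in the 4 comparisons of the authors' deposited tables, first-named group over second, where blue marks genes called lower, red genes called higher and grey genes not called. Cyp2a5 at -1.66 and Cyp1a1 at -1.10 are called in unventilated KO lungs, Cyp2s1 and Aldh1a1 in ventilated WT lungs, and Fmo2 at -0.90 in KO VILIhigh lungs.

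Cell type markers moved in the same comparison. Their levels were summed over the markers with no deposited fold change of exactly 0, so 13 of 14 club and 9 of 10 alveolar type 2 markers entered. Of 12 markers of ciliated cells, the other main cell of the bronchiole, 7 were called lower in KO noVILI lungs and none higher, and their summed level was 326 CPM in KO noVILI against 478 to 486 CPM in WT noVILI lungs. The cilium gene Ccdc39 had a log2 fold change of -1.32 and Sntn one of -1.24 in the authors' deposited table. Of 14 club cell markers, 2 were called lower: the secretoglobin Scgb3a2 (log2 fold change -0.68) and the airway host-defence gene Bpifa1 (-3.14), both from the authors' deposited table. Bpifa1 was near the floor, at 0.417 CPM in KO noVILI against 3.69 CPM in WT noVILI lungs, with an approximate SE of 0.92. The club markers summed to 5457 CPM in KO noVILI and 5508 to 5808 CPM in WT noVILI lungs. Cardiac muscle markers, which in mouse lung tissue can come from the sleeves of the pulmonary veins, were called lower for 7 of 9, with a summed level of 275 CPM in KO noVILI against 693 to 698 CPM in WT noVILI lungs. Of 9 adipocyte markers 3 were called lower, with a summed level of 31.2 CPM in KO noVILI against 54.7 to 55.5 CPM in WT noVILI lungs. Of 12 mesenchymal and 10 alveolar type 2 markers 3 and 2 were called lower, and of 14 endothelial markers 2 were called higher. The sums of the first 2 lists went the other way from these calls. Mesenchymal markers summed to 2766 CPM in KO noVILI against 2537 to 2567 CPM in WT noVILI lungs. Alveolar type 2 markers summed to 11758 CPM in KO noVILI against 9866 to 10368 CPM in WT noVILI lungs. The endothelial markers summed to 7280 CPM in KO noVILI against 6311 to 6361 CPM in WT noVILI lungs. Of 8 alveolar type 1 markers 0 were called, with a summed level of 4976 CPM in KO noVILI against 6377 to 6598 CPM in WT noVILI lungs. Of 5 red cell markers 0 were called, with a summed level of 2651 CPM in KO noVILI against 1432 to 1453 CPM in WT noVILI lungs. No marker of these lists was under 0.5 CPM in all groups. The part of these differences in the values of Cyp2a5 and Cyp1a1 was not tested.

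Cyp2a5 has a close copy in the mouse genome, Cyp2a4, a steroid 15-alpha-hydroxylase, and the 2 genes moved together. Of the 1964 windows of 50 bases in a Cyp2a5 transcript, 802 (40.8%) occur without a mismatch in another gene, most often Cyp2a4, so short reads can be split between them and the value of each gene is uncertain. Of the other enzymes, Cyp4b1 shared 10.3% of its windows with another gene, Aldh1a1 6.54%, Cyp1a1 3.55% and Ces1d 1.28%, and the remaining 5 shared none. Cyp2a4 stood at 19.9 CPM in KO noVILI against 54.5 CPM in WT noVILI lungs, with a log2 fold change of -1.46 and an approximate SE of 0.16 (adjusted p = 1.13e-17, edgeR) in the authors' deposited table. The stretches upstream of both genes are nearly the same. The 250 bases before each annotated start are shown because they are what lies upstream of the 2 P450 genes with the clearest loss in unventilated KO lungs. They come from RefSeq on build GRCm38.p6, chr7:26835089-26835338 for Cyp2a5 and chr7:26306942-26307191 for Cyp2a4, both on the plus strand. Capitals mark the bases that differ when the 2 are aligned.
Cyp2a5: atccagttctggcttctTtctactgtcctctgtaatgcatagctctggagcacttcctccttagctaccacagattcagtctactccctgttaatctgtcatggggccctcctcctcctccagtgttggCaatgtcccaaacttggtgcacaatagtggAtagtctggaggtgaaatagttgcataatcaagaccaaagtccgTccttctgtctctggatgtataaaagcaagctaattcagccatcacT
Cyp2a4: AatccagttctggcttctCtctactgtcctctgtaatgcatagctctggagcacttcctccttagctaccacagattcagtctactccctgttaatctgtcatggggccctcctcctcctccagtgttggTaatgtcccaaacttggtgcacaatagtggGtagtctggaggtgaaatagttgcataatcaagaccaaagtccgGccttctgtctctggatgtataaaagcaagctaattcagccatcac
The alignment holds 245 identical bases, 4 mismatches and 1 unpaired base at an end of each, an identity of 97.6%. Both stretches hold a TATA box (TATAAA, in 12.3% of the 32536 upstream stretches of the annotation) and a match to the core of the C/EBP motif (TTGCNNAA, in 9.57%), with all motifs searched on both strands. The C/EBP match lies 71 to 64 bases before the start of Cyp2a5 and 70 to 63 before that of Cyp2a4, and none of the differing bases falls within it.

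Cyp2a5 and Cyp2a4 belong to a cluster of Cyp2 genes on chromosome 7 that also holds Cyp2s1 and Cyp2f2. RefSeq (GRCm38.p6) orders its 13 genes as Cyp2s1, Cyp2b10, Cyp2b13, Cyp2b9, Cyp2a4, Cyp2b23, Cyp2b19, Cyp2g1, Cyp2a5, Cyp2a22, Cyp2a12, Cyp2f2 and Cyp2t4. In KO noVILI lungs 4 of the 13 were called lower, Cyp2b9, Cyp2a4, Cyp2b23 and Cyp2a5, where the table called 1.92% of all genes lower. Cyp2a4 and Cyp2a5 share windows, as given above, so the 4 calls are not independent of each other. Cyp2b9 stood at 3.13 CPM in KO noVILI and 6.68 CPM in WT noVILI lungs, with a log2 fold change of -1.09 and an approximate SE of 0.32 (adjusted p = 0.0234) in the authors' deposited table. Cyp2b23 stood at 6.78 CPM in KO noVILI and 12.2 CPM in WT noVILI lungs, with a log2 fold change of -0.85 and an approximate SE of 0.23 (adjusted p = 0.0144) in the authors' deposited table. Between Cyp2b23 and Cyp2a5, Cyp2b19 had -0.80 (adjusted p = 0.081) and Cyp2g1, which stayed under 2 CPM, had -1.77 (adjusted p = 0.193) in the authors' deposited table, both short of the threshold. On the other side of Cyp2b9, Cyp2b13 had 0.47 and Cyp2b10 -0.11, and the authors' deposited table gives an adjusted p of 1 for both. The Cyp2b genes share windows of 50 bases with other genes as well, from 2.45% of those of Cyp2b19 to 27.3% of those of Cyp2b13, so their values carry the same uncertainty. Cyp2a22 and Cyp2a12 stayed under 1 CPM in every group and were not read.

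**Figure D2:**
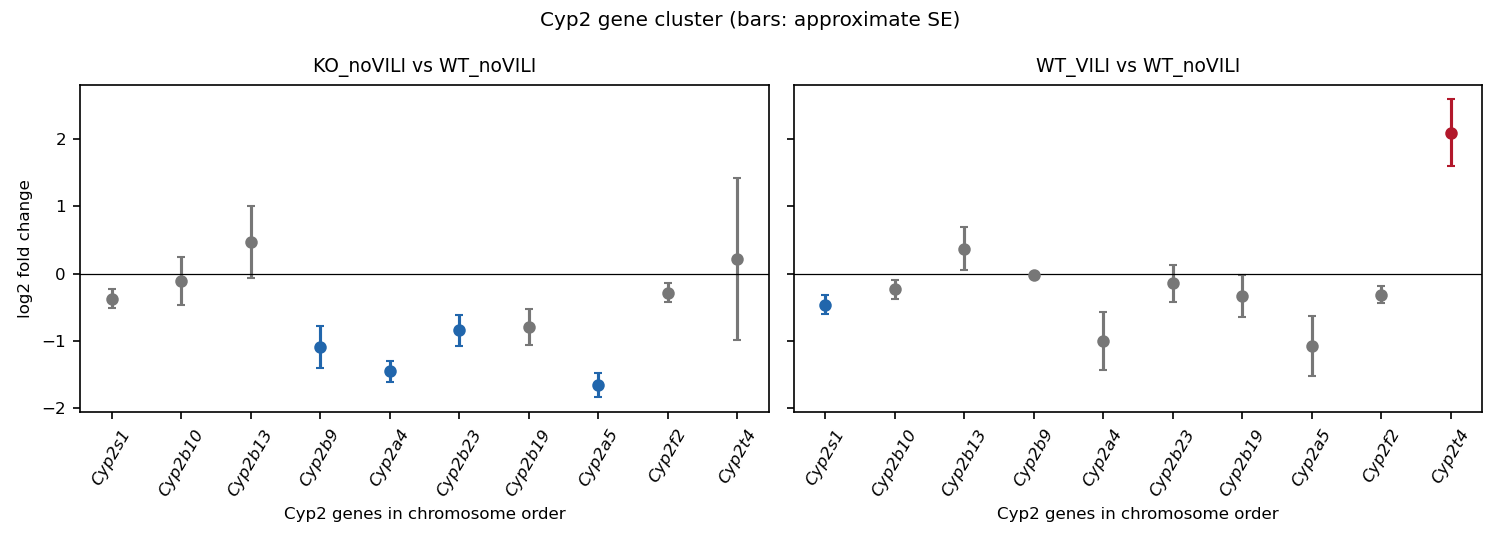
Log2 fold change with approximate SE for the genes of the chromosome 7 Cyp2 cluster in chromosome order (evenly spaced, not to scale), KO noVILI over WT noVILI on the left and WT VILI over WT noVILI on the right; Cyp2g1, Cyp2a22 and Cyp2a12, which stay under 2 CPM, are left out, and blue marks genes called lower, red higher. Cyp2b9, Cyp2a4, Cyp2b23 and Cyp2a5 are called lower on the left, whereas Cyp2s1 is called lower and Cyp2t4 higher on the right, where Cyp2b9 has no error bar because its deposited p is 1.

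Cyp1a1 and Cyp1b1 are shown with the sequence before their starts because both carry a core of the AhR response element there (GCGTG, read as CACGC on the other strand and found in 28.3% of all upstream stretches). The stretches come from RefSeq on build GRCm38.p6, chr9:57697363-57697612 on the plus strand for Cyp1a1 and chr17:79715062-79715311 on the minus strand for Cyp1b1, written 5′ to 3′ along the gene with the core in capitals.
Cyp1a1: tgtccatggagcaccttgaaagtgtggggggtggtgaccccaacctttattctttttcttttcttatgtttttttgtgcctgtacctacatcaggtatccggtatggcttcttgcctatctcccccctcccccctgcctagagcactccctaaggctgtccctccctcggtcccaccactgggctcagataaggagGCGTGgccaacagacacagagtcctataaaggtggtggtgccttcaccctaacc
Cyp1b1: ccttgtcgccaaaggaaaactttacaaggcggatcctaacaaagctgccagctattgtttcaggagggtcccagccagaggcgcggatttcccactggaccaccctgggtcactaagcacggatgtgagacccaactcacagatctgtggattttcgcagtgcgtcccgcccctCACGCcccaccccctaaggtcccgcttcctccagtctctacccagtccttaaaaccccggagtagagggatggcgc
The match lies 54 to 50 bases before the start of Cyp1a1, just ahead of a TATA box at 30 to 25 bases, and 76 to 72 bases before that of Cyp1b1. A motif of 5 letters is common and says nothing of binding in these lungs. Across the groups Cyp1a1 stood at 15.7 CPM in KO VILIhigh, 13.1 in KO VILIlow, 21.3 to 22.7 in WT VILI, 13.9 in KO noVILI and 29.8 to 30.1 in WT noVILI lungs. All 3 KO groups lay below both WT groups. Of these differences the unventilated one was called. The log2 fold changes of -0.45 and -0.71 for KO VILIhigh and KO VILIlow against WT VILI had approximate SEs of 0.54 and 0.50 (adjusted p = 1 for both) in the authors' deposited tables. Cyp1b1 did not share that order: it stood at 12.0 CPM in KO VILIhigh, 13.1 in KO VILIlow, 10.2 to 11.4 in WT VILI, 10.5 in KO noVILI and 14.9 to 15.2 in WT noVILI lungs.

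Ventilation of WT mice went with 1 enzyme called higher and 1 called lower. Aldh1a1, which oxidises retinaldehyde and lipid aldehydes, was higher in WT VILI than in WT noVILI lungs, and Cyp2s1 was lower. This table called 9.09% of all genes (4.85% higher and 4.23% lower in ventilated lungs), and 14.7% of those with a mean of at least 3 on the log2 CPM scale, so a share of 2 in 10 stands near the background. Aldh1a1 stood at 1476 CPM in WT VILI against 1091 CPM in WT noVILI lungs, a log2 fold change of 0.44 with an approximate SE of 0.15 (adjusted p = 0.0363, edgeR) in the authors' deposited table. Cyp2s1 stood at 185 CPM in WT VILI against 255 CPM in WT noVILI lungs, a log2 fold change of -0.47 with an approximate SE of 0.14 (adjusted p = 0.0181) in the authors' deposited table. Both changes rest on groups that also differ in their sex-linked genes.

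Cyp2a5 had a wider gap than either, 111 CPM in WT VILI against 234 CPM in WT noVILI lungs, and was not called. Its log2 fold change of -1.07 had an approximate SE of 0.45 (adjusted p = 0.128) in the authors' deposited table, where the median SE of genes with a log2 CPM of at least 3 was 0.17. The approximate SE of Cyp2a5 was thus larger in the comparisons with ventilated lungs, at 0.45 to 0.54, than in the unventilated one. All comparisons with ventilated lungs share the WT VILI group. Cyp2f2 stood at 2143 CPM in WT VILI and 2671 CPM in WT noVILI lungs (log2 fold change -0.32, adjusted p = 0.105, authors' deposited table). Fmo2, Ces1d, Cyp4b1 and Gsta3 had log2 fold changes between -0.16 and 0.08 in the authors' deposited table, each within 2 approximate SEs of 0. The median of the 10 was -0.24 in the authors' deposited table, against -0.02 over its genes above the abundance minimum. Ciliated markers were called lower for 3 of 12, with the ciliogenesis factor Foxj1 at a log2 fold change of -1.68 in the authors' deposited table, and the 9 neutrophil markers were all called higher, with summed levels of 629 to 635 CPM in WT VILI against 157 to 159 CPM in WT noVILI lungs. Of 14 endothelial markers 6 were called lower, with summed levels of 5060 to 5285 CPM in WT VILI against 6311 to 6361 CPM in WT noVILI lungs, and of 5 red cell markers 3 were called lower, with 377 to 390.5 CPM in WT VILI against 1432 to 1453 CPM in WT noVILI lungs. Of 12 mesenchymal markers 4 were called higher and 2 lower, with 2781 to 2881 CPM in WT VILI against 2537 to 2567 CPM in WT noVILI lungs. Of 14 club markers 2 were called lower and 1 higher. The club markers summed to 5191 to 5488 CPM in WT VILI and 5508 to 5808 CPM in WT noVILI lungs. Of 9 cardiac and 10 alveolar type 2 markers 0 were called. The cardiac markers summed to 449 to 453 CPM in WT VILI against 693 to 698 CPM in WT noVILI lungs. The alveolar type 2 markers summed to 11522 to 12178 CPM in WT VILI against 9866 to 10368 CPM in WT noVILI lungs. Of 8 alveolar type 1 markers 2 were called higher and 1 lower. Their sum was 5971 to 6283 CPM in WT VILI against 6377 to 6598 CPM in WT noVILI lungs. The part of any of these cells in the enzyme values was not tested.

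**Figure D3:**
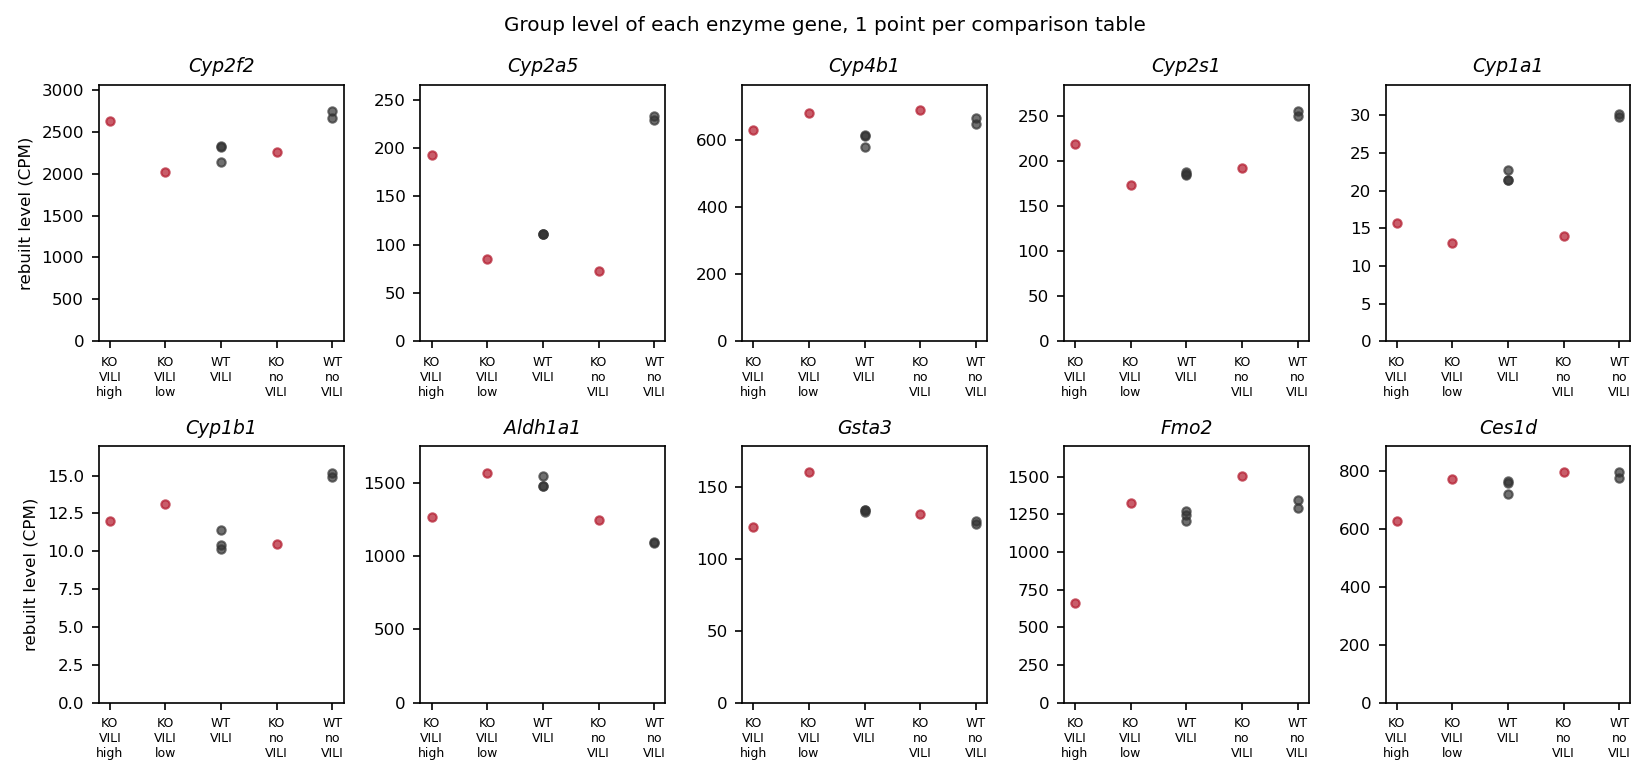
Rebuilt level in CPM of each enzyme gene in the 5 groups, on axes that start at 0, with 1 point for each comparison table that holds the group (red for KO, dark grey for WT); the points of a group are readings of the same libraries and not replicates. Fmo2 is low in KO VILIhigh alone at 664 CPM, Cyp2a5 is high in WT noVILI and KO VILIhigh, and Cyp1a1 lies lower in the 3 KO groups than in the 2 WT groups.

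Among ventilated lungs, the low-injury KO group could not be set apart from WT on any of the 10 enzymes. In KO VILIlow against WT VILI lungs edgeR called 0 of 10, and 0 had an unadjusted p under 0.05, where the table called 0.973% of all genes (0.676% higher, 0.296% lower) and 1.34% of those with a mean of at least 3 on the log2 CPM scale. The log2 fold changes ran from -0.71 for Cyp1a1 to 0.37 for Cyp1b1, with a median of 0.02 against -0.01 over the genes above the abundance minimum, in the authors' deposited table. Cyp2f2 stood at 2021 CPM in KO VILIlow and 2324 CPM in WT VILI lungs, and the glutathione transferase Gsta3 at 161 CPM in KO VILIlow and 134 CPM in WT VILI lungs. The median approximate SE here was 0.22 over genes with a mean of at least 3 on the log2 CPM scale. It was 0.54 for Cyp2a5 and 0.50 for Cyp1a1. A call takes a change of several SEs: the neutrophil marker Ngp, at 0.84 with an SE of 0.24, only just passed (adjusted p = 0.046, edgeR). Changes well above 0.22 could thus go uncalled for a single gene. The cardiac markers moved here too, 8 of 9 being called higher in KO VILIlow lungs with a summed level of 1111 CPM, against 449 to 453 CPM in WT VILI lungs. The 5 red cell markers, 1 of them called higher, summed to 1346 CPM in KO VILIlow against 377 to 390.5 CPM in WT VILI lungs. The ciliated markers, with Sntn called lower, summed to 238 CPM in KO VILIlow against 317 to 335 CPM in WT VILI lungs. Among alveolar type 2 markers Chi3l1 was called lower (log2 fold change -1.63). That list summed to 11329 CPM in KO VILIlow against 11522 to 12178 CPM in WT VILI lungs. The part of these cells in the enzyme values was not tested.

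In the high-injury KO group Fmo2 was the 1 enzyme called, and it was lower than in ventilated WT lungs. This monooxygenase oxidises soft nitrogen and sulphur centres, such as those of thioureas, and is the main flavin-containing monooxygenase of the lung in many mammals. Fmo2 stood at 664 CPM in KO VILIhigh against 1243 CPM in WT VILI lungs, a log2 fold change of -0.90 with an approximate SE of 0.20 (adjusted p = 0.000658, edgeR) in the authors' deposited table. The table called 1.56% of all genes (1.13% higher, 0.435% lower) and 2.62% of those with a mean of at least 3 on the log2 CPM scale. Fmo2 was also the only one of the 10 with an unadjusted p under 0.05. In the remaining groups it stood at 1323 CPM in KO VILIlow, 1205 to 1274 in WT VILI, 1507 in KO noVILI and 1293 to 1344 in WT noVILI lungs, all well above the KO VILIhigh level. In the 3 comparisons among those groups its log2 fold changes were 0.05, -0.10 and 0.16 (adjusted p = 1, 0.982 and 0.907) for KO VILIlow against WT VILI, WT VILI against WT noVILI and KO noVILI against WT noVILI in the authors' deposited tables.

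The other 9 enzymes of KO VILIhigh lungs did not pass. Cyp2a5 stood at 193 CPM in KO VILIhigh and 110.7 CPM in WT VILI lungs (log2 fold change 0.80, approximate SE 0.53, adjusted p = 0.892, authors' deposited table). Cyp2f2 stood at 2630 CPM in KO VILIhigh and 2332 CPM in WT VILI lungs, and Cyp2s1 at 219 CPM in KO VILIhigh and 186 CPM in WT VILI lungs. Ces1d, a carboxylesterase that cleaves esters and triglycerides, stood at 629 CPM in KO VILIhigh against 764 CPM in WT VILI lungs (log2 fold change -0.28, adjusted p = 0.964, authors' deposited table). The median of the 10 was -0.04 in the authors' deposited table, against 0.00 over its genes above the abundance minimum.

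Cell markers moved beside Fmo2. In KO VILIhigh against WT VILI lungs 3 of 10 alveolar type 2 markers were called lower, with summed levels of 9795 CPM in KO VILIhigh and 11522 to 12178 CPM in WT VILI lungs. Chi3l1 (log2 fold change -1.67) and Sfta2 (-0.92) were among them, and their calls are not particular to this group. Chi3l1 was also called lower in KO VILIlow against WT VILI (-1.63) and KO noVILI against WT noVILI lungs (-1.56). Sfta2 was also called lower in KO noVILI against WT noVILI lungs (-1.05). Of 14 endothelial markers 1 was called lower, the adrenomedullin receptor gene Calcrl, with a log2 fold change of -0.86 in the authors' deposited table, and the endothelial list summed to 4754 CPM in KO VILIhigh and 5060 to 5285 CPM in WT VILI lungs. The 9 cardiac markers, 2 called higher, summed to 764 CPM in KO VILIhigh against 449 to 453 CPM in WT VILI lungs, and the 9 adipocyte markers, 2 called higher, to 109 CPM in KO VILIhigh against 54.1 to 60.6 CPM in WT VILI lungs. The neutrophil markers summed to 1128 CPM in KO VILIhigh against 629 to 635 CPM in WT VILI lungs, and the red cell markers to 1202 CPM in KO VILIhigh against 377 to 390.5 CPM in WT VILI lungs. Club cell markers went up in part: the mucin gene Muc5b, Lypd2 and Bpifa1 were called higher, 3 of 14, with a summed level of 5984 CPM in KO VILIhigh against 5191 to 5488 CPM in WT VILI lungs. The part of these cells in the fall of Fmo2 was not tested.

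The sequence before the start of Fmo2 is shown because Fmo2 was the 1 enzyme called in KO VILIhigh lungs. It comes from RefSeq on build GRCm38.p6, chr1:162898494-162898743 on the minus strand, and belongs to the annotated start that also opens a GENCODE transcript. Capitals mark matches to the C/EBP core (TTGCNNAA, as above) and, nearer the start, to a FOXA core (TGTTTAC, read as GTAAACA on the other strand and present in 3.17% of all upstream stretches).
Fmo2: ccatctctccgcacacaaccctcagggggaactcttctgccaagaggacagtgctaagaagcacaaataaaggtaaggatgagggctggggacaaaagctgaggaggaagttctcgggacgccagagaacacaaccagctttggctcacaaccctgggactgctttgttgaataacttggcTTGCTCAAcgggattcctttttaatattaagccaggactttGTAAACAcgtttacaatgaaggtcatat
The C/EBP match lies 69 to 62 bases and the FOXA match 28 to 22 bases before the start. Of the other enzymes, Aldh1a1 (at 1 of its annotated starts) and Gsta3 also hold a C/EBP core, as does Cyp2a5, Gsta3 holds an NRF2 core (TGACNNNGC, in 10.2% of upstream stretches) at 121 to 113 bases, and Cyp2f2, Cyp2s1 and Cyp4b1 hold none of the 5 motifs searched. RefSeq stretches were found for 9 of the 10 enzymes, all but Ces1d.

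The difference between high-injury and low-injury KO lungs, and between ventilated and unventilated KO lungs, had no table of its own and was worked out from the deposited ones. In KO VILIhigh against KO VILIlow lungs 0 of the 10 enzymes passed, where 0.165% of all genes tested did, and 1 had an unadjusted p under 0.05. That was Fmo2, at 664 CPM in KO VILIhigh and 1323 CPM in KO VILIlow lungs, with a log2 difference of -0.96, an approximate SE of 0.27 and a 95% interval from -1.48 to -0.43 (adjusted p = 0.142, normal approximation with Benjamini-Hochberg adjustment). The interval of Cyp2a5 ran from -0.30 to 2.68 and included 0. In KO VILIlow against KO noVILI lungs 0 of 10 passed and 0 had an unadjusted p under 0.05, against 3.53% of all genes tested. In KO VILIhigh against KO noVILI lungs 1 of 10 passed, against 3.88% of all genes tested: Fmo2 had a log2 difference of -1.17 with an approximate SE of 0.28 and a 95% interval from -1.73 to -0.62 (adjusted p = 0.0020).

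Whether the KO differed from WT by another amount with ventilation than without it was tested as a difference of fold changes. For the low-injury KO group 0 of 10 enzymes passed, against 1.17% of all genes tested. Cyp2a5 and Cyp1b1 had an unadjusted p under 0.05, with log2 differences of 1.28 and 0.87 (adjusted p = 0.693 and 0.690). For the high-injury KO group 2 of 10 passed, against 1.57% of all genes tested, and they went opposite ways. Cyp2a5 had a log2 fold change of 0.80 for KO VILIhigh against WT VILI and -1.66 for KO noVILI against WT noVILI in the authors' deposited tables. These are 2.47 apart, with an approximate SE of 0.56 and a 95% interval from 1.37 to 3.57 (adjusted p = 0.00197, normal approximation). Its copy Cyp2a4 gave 2.19 with an SE of 0.58 (adjusted p = 0.0158), a value not independent of that of Cyp2a5 because the 2 genes share windows. For Fmo2 the values were -0.90 for KO VILIhigh against WT VILI and 0.16 for KO noVILI against WT noVILI in the authors' deposited tables, a difference of -1.07 with an approximate SE of 0.25 and a 95% interval from -1.55 to -0.59 (adjusted p = 0.00249). Cyp2s1 had an unadjusted p under 0.05 (log2 difference 0.61, adjusted p = 0.297). With each gene's largest SE over the 4 tables in place of each table's own, Fmo2 still passed (adjusted p = 0.0204) and Cyp2a5 did not (adjusted p = 0.120). The ventilated groups had Ddx3y and the unventilated groups Xist, as given above, so sex and ventilation cannot be told apart in these differences either.

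**Figure D4:**
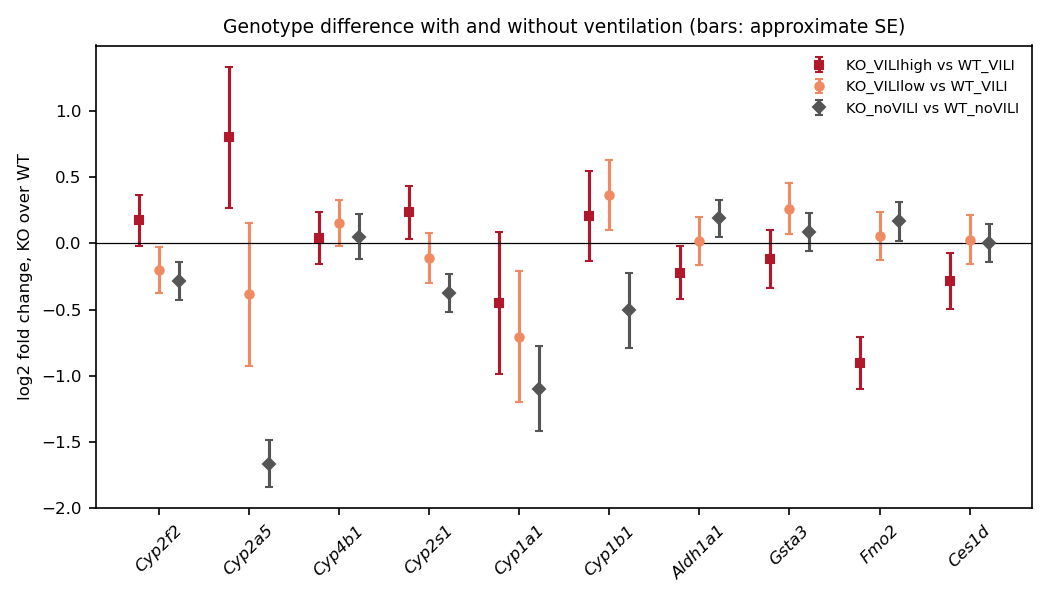
Log2 fold change, KO over WT, of the 10 enzyme genes with approximate SE, for KO VILIhigh against WT VILI (squares), KO VILIlow against WT VILI (circles) and KO noVILI against WT noVILI (diamonds). Cyp2a5 lies at -1.66 without ventilation and at 0.80 in the high-injury group, whereas Fmo2 lies near 0 without ventilation and in the low-injury group and at -0.90 in the high-injury group.

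The genes whose 5 group levels were most like those of Cyp2a5 and Fmo2 were sought among 12809 genes, by the root mean square difference of centred log2 levels over the 5 groups. Nearest to Cyp2a5 was Cyp2a4 (0.0819), followed by the B cell receptor gene Cd79a (0.227), Pcyt1b (0.258), Asgr1 (0.272) and Unc79 (0.289). Nearest to Fmo2 were H2afy3 (0.0780), Pcdhb19 (0.0950), the circadian repressor Cry1 (0.0982), Lig4 (0.104) and Fibin (0.106). These distances describe the 5 group levels and were not tested.

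The wider machinery of foreign-compound metabolism was set beside the 10 enzymes by lists of other genes. In unventilated KO lungs, where the table called 3.36% of all genes, the counts stood near that share: 1 of 28 other P450, flavin monooxygenase and reductase genes was called lower (Cyp2a4), as were 1 of 21 genes acting on aldehydes, ketones and alcohols (Akr1c14) and 1 of 35 conjugating enzymes (Sult1d1), and 0 of 17 esterases and other hydrolases were called. The P450 list does not hold Cyp2b9 and Cyp2b23 of the Cyp2 cluster, both called lower in this comparison. Its count therefore depends on its make-up. The hydroxysteroid dehydrogenase gene Akr1c14 stood at 60.8 CPM in KO noVILI against 122 CPM in WT noVILI lungs. The sulfotransferase gene Sult1d1 had a log2 fold change of -1.07 in the authors' deposited table. Of 17 receptors and other regulators of these genes 1 was called, Hsp90ab1, which encodes a chaperone that holds the AhR in the cytoplasm, at 0.63 in the authors' deposited table. None of 15 targets of NRF2, the factor that answers oxidative and electrophilic stress, was called. The median log2 fold changes of the 6 lists lay between -0.11 (P450, flavin monooxygenase and reductase genes) and 0.00 (regulators) in the authors' deposited table, against 0.00 over all its genes.

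In ventilated WT lungs the table called 9.09% of all genes. Of the 28 P450, flavin monooxygenase and reductase genes 4 were called lower and 1 higher. Fmo1 stood at 389 CPM in WT VILI against 735 CPM in WT noVILI lungs (log2 fold change -0.92, authors' deposited table), and Cyp2t4 of the chromosome 7 cluster, at 4.26 CPM in WT VILI against 0.992 CPM in WT noVILI lungs (2.10, authors' deposited table). Of the 21 aldehyde, ketone and alcohol genes 2 were called higher and 3 lower, with Aldh3a1, an aldehyde dehydrogenase of stressed epithelia, at 1.41 and the alcohol dehydrogenase gene Adh1 at -0.71 in the authors' deposited table. Of the 35 conjugating enzymes 1 was called higher (Gsta1, 1.40) and 2 were called lower, among them the methyltransferase gene Inmt (-0.55) in the authors' deposited table. Of the 17 hydrolases 1 was called higher, the carboxylesterase gene Ces1g at 0.65 in the authors' deposited table. Of the 17 regulators 2 were called higher and 4 lower: the AhR-induced repressor gene Tiparp had 1.16 and the factor gene Cebpa -0.95 in the authors' deposited table, and Ahr itself stood at 127 CPM in WT VILI against 174 CPM in WT noVILI lungs. Of the NRF2 targets 9 of 15 were called higher and none lower, and their median log2 fold change was 0.92 in the authors' deposited table, against 0.00 over all its genes. The medians of the other 5 lists ran from -0.23 (P450, flavin monooxygenase and reductase genes) to 0.00 (hydrolases) in the authors' deposited table. The sulfiredoxin gene Srxn1 had a log2 fold change of 2.64 and the cystine transporter gene Slc7a11 one of 3.48 in the authors' deposited table, while Gsta3 of the 10 enzymes, a gene that NRF2 is also known to drive, stood at 134 CPM in WT VILI and 127 CPM in WT noVILI lungs.

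In KO VILIlow against WT VILI lungs, where the table called 0.973% of all genes, none of the 6 lists had a called gene. In KO VILIhigh against WT VILI lungs, where 1.56% of all genes were called, 3 of the 15 NRF2 targets were called higher, with a list median of 0.24 on the log2 scale, the haem oxygenase gene Hmox1 at 1.33 and Osgin1 at 1.11 in the authors' deposited table. The regulator gene Cebpb was called higher, at 216 CPM in KO VILIhigh against 123 CPM in WT VILI lungs (log2 fold change 0.81, authors' deposited table), and Akr1c14 was called lower, at 63.7 CPM in KO VILIhigh against 108 CPM in WT VILI lungs (-0.76, authors' deposited table). No other P450, flavin monooxygenase, reductase, hydrolase or conjugating gene of the lists was called in that comparison. Among the P450 and flavin monooxygenase genes looked at, Fmo2 was thus the only one called.

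**Figure D5:**
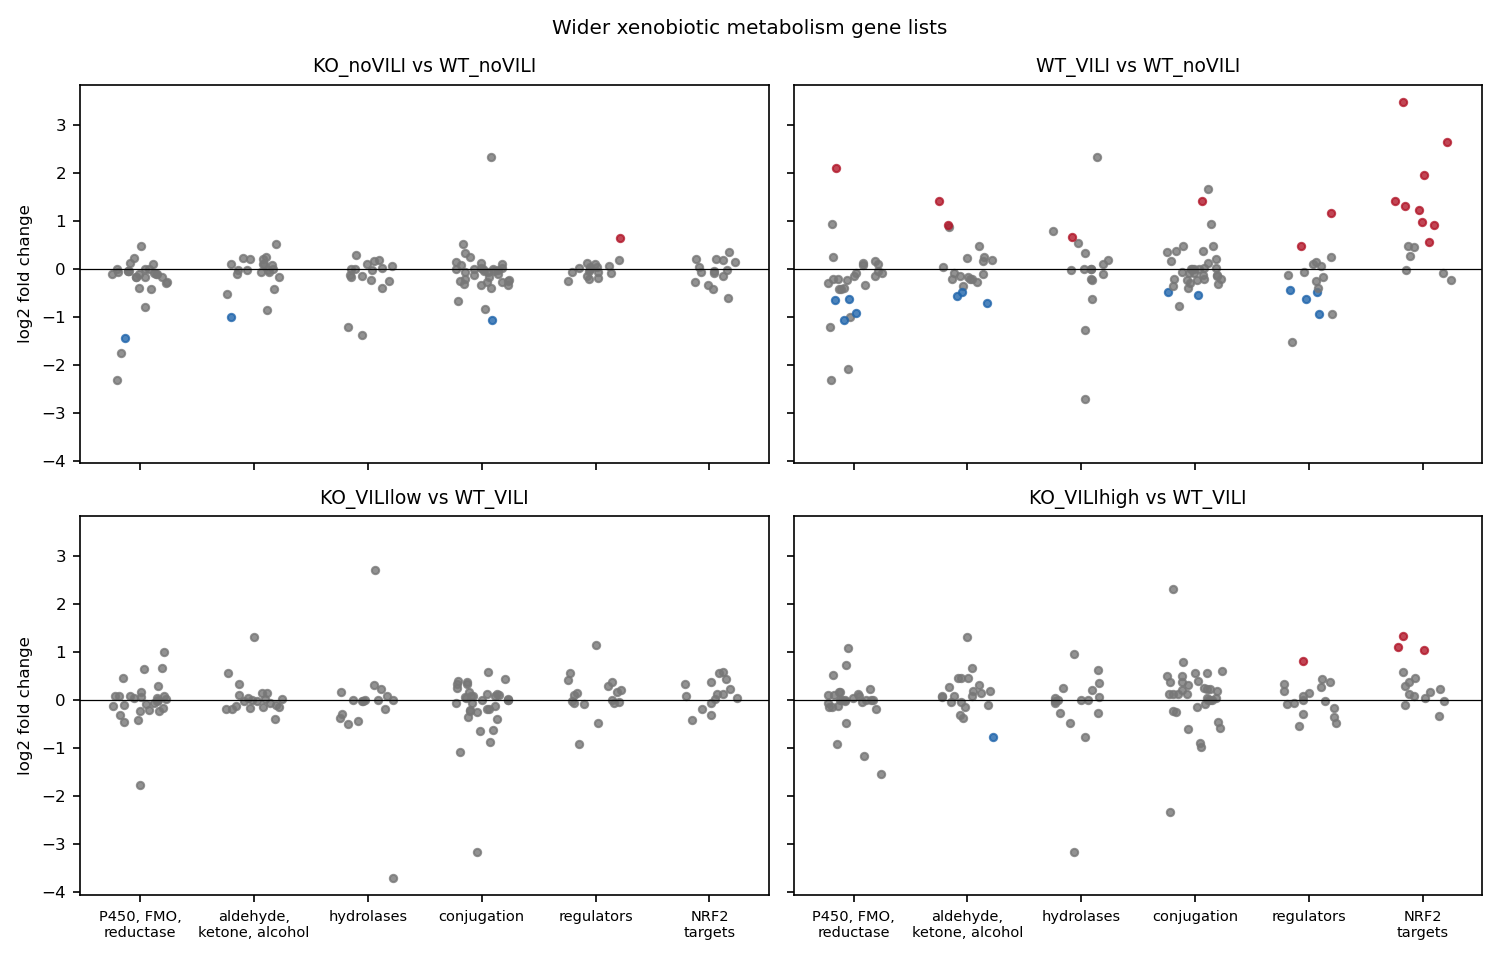
Log2 fold change of each gene of 6 lists of foreign-compound metabolism (1 point per gene, spread sideways at random; red called higher, blue called lower, grey not called) in the 4 comparisons, first-named group over second. In WT VILI over WT noVILI 9 of 15 NRF2 targets are called higher, up to 3.48, and none of the 6 lists has a called gene in KO VILIlow over WT VILI.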

How the data were processed

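RNA of whole lungs was sequenced in 5 groups. The deposited files are the authors' 4 comparison tables, with log2 fold change, mean log2 CPM, p-value and adjusted p-value per gene, named in the file headers. The submitters' processing notes name Bowtie 1.1.2, build mm9, R 3.0.1 and edgeR, with no version for edgeR. The authors' filters, normalization and counting by strand are not given in the sources used here. Since the deposited p-values are the authors', no model was refitted, and no step here could use single libraries.

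Genes were matched by symbol. The reference of the 2 ventilated KO tables was checked: its rebuilt levels lay a median of 0.0491 and 0.0450 log2 units from WT VILI and 0.205 and 0.203 from WT noVILI, over 10562 genes. A group's level was rebuilt by taking the mean of both groups' levels as 2 to the power of the mean log2 CPM. The approximate SE is the fold change's absolute value over the z-score that its two-sided p-value stands for. 5 further contrasts were formed by adding and subtracting fold changes, with variances summed, a normal approximation and Benjamini-Hochberg adjustment over the genes whose mean log2 CPM reached 1 in the tables used. They are approximate: those between KO groups still count the variance of WT groups that cancel out, while those of the genotype difference do not have that margin. The arithmetic was tested on simulated data.

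The enzymes, the gene lists and the tests were chosen with earlier results of these data known. Named were all 10 enzymes, the other Cyp2 genes of the cluster, at most 2 called genes per list and table with the smallest p, and 5 genes of like pattern for each of the 2 enzymes with the smallest p. Ahr and Muc5b were named after their values were seen, and Cldn4, Xist, Ddx3y and Scgb1a1 as checks of the groups and tissue. Upstream sequences come from RefSeq, build GRCm38.p6, and shared windows from GENCODE transcripts of the same build; no coordinate of the authors' build was used. The work used scipy 1.17.1, pandas 2.3.3 and numpy 2.4.6 under Python 3.11.15, with biopython 1.88 for the alignment and matplotlib 3.10.9 for the plots.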

Additional observations from a re-analysis of the deposited data

Results flagged for a closer look

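For 2 enzymes the difference between KO and WT lungs was called different with ventilation, in the high-injury group, from that without it. For Cyp2a5 the log2 fold change in KO VILIhigh against WT VILI lungs minus that in KO noVILI against WT noVILI lungs was 2.467, and for Fmo2 it was -1.07. Both come from a test of that difference, and both span groups that differ in the sex-linked genes Ddx3y and Xist, while the labels give no sex. Neither passed under a Bonferroni adjustment, and Cyp2a5 did not pass with its largest SE. In the low-injury group the same difference was 1.28 for Cyp2a5 and -0.11 for Fmo2, and neither passed. KO VILIhigh was formed by injury, so ventilation and injury grade cannot be told apart in the high-injury values.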

How the results depend on the processing

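No paired analysis was possible because the tables hold no values per library, and for the same reason no replicate could be left out. Under a Bonferroni adjustment the count of called enzymes was 1 in KO noVILI against WT noVILI lungs (Cyp2a5), and 0 in WT VILI against WT noVILI, KO VILIhigh against WT VILI, KO VILIhigh against KO noVILI and the high-injury genotype difference. At a threshold of 0.01 it was 1 in KO noVILI against WT noVILI (Cyp2a5) and 0 in WT VILI against WT noVILI lungs. With a log2 fold change of at least 1 also required, it was 0 in WT VILI against WT noVILI and 0 in KO VILIhigh against WT VILI lungs. With each gene's largest SE over the 4 tables used throughout, an alternative chosen after seeing the data, 1 enzyme was called in the high-injury genotype difference: Fmo2 stayed (adjusted p = 0.0204) and Cyp2a5 did not (adjusted p = 0.120). These alternatives are stricter by construction. An abundance filter and centring on the median changed no count of called enzymes. Read as a mean of log values, the mean abundance gave Cyp2a5 at 84.8 CPM in KO noVILI and 269 CPM in WT noVILI lungs, and the other 78 of 80 levels moved by less than their SE. Library depth is unknown.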
